A study of Mus musculus with 3 samples.

Results

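The genes described here are 43 genes of excision and strand-break DNA repair, chosen by name from the repair pathways and found by symbol among the 32285 genes of the count matrices. By role, 7 recognise damage, 3 couple repair to transcription, 10 verify and open the damaged site, 3 cut the strand or belong to a cutting enzyme, 6 resynthesise and ligate DNA, 8 belong to base excision repair and 6 act at strand breaks or signal them. All 43 were detected. The rule that picks them uses no measured value, but the list was drawn up with earlier results of these data known.

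The skin of the back of wild-type C57BL/6J mice, taken at full thickness, was dissociated and sequenced from 3' transcript ends in droplets, and each of the 3 conditions gave 1 library. The mice were 8 weeks old at the start. CON skin received no UV, UV skin was exposed every second day during 12 weeks to UVA (0.6 mW/cm2) mixed with UVB (3.5 mW/cm2), and Rux skin received the same irradiation followed each time by an ointment with 1.5% ruxolitinib, a JAK1/2 inhibitor. The study describes the CON and UV mice as vehicle-treated, skin was taken 24 h after the last exposure, and the number of mice pooled in a library is not given in the sources used here. With 1 library per condition, a difference between conditions has no replicate check, so no test or p-value is given for it.

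The labels call the mice female, yet in each library the Y-linked gene Ddx3y stood at 110 to 121 CPM (UMIs of the gene per 1000000 UMIs of the class or library) and Xist at 0.0912 to 0.118 CPM. Filtering left 9386 to 10885 cells per library with a median of 7567 to 9443 UMIs, where a UMI is a molecular tag marking 1 captured transcript. Of the 36750 distinct cell barcodes, 118 occurred in 2 libraries and 0 in all 3. Cells were clustered without the 43 repair genes, and clusters were named from marker genes. Fibroblast (FB)-like cells numbered 3327, 5076 and 5011 in CON, UV and Rux, and keratinocyte (KC)-like cells, which join basal, suprabasal and hair follicle clusters, numbered 3662, 1929 and 1621. FB markers such as Col1a1 and Dcn summed to 25661 to 33354 CPM in FB-like cells and to 526 to 705 CPM in KC-like cells. Basal keratinocyte (KB) markers such as Krt14 and Krt5 summed to 4495 to 5967 CPM in KC-like cells, and to 238, 107 and 106 CPM in FB-like cells in the order CON, UV, Rux.

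Ultraviolet light joins neighbouring pyrimidines and bends the helix. Nucleotide excision repair finds such lesions across the genome through XPC and the DDB1-DDB2 complex, or at a stalled RNA polymerase through CSA and CSB, and then TFIIH opens the DNA, XPA checks the lesion, the XPF-ERCC1 and XPG nucleases cut out the damaged piece, and polymerases and ligases fill the gap. Base excision repair removes single oxidised or deaminated bases with glycosylases and an AP endonuclease. Several of the filling enzymes and some of the strand-break genes also serve ordinary DNA replication.

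Summed over all 43 genes, FB-like cells held 943 CPM in CON, 821 in UV and 843 in Rux. KC-like cells held 1803, 1676 and 1540 CPM in the same order. Summed, the repair genes were therefore higher in KC-like than in FB-like cells of every library. In either class the sum was highest in CON, but not for every role. In FB-like cells damage recognition summed to 312, 310.8 and 330.3 CPM and the transcription-coupled genes to 44.09, 51.59 and 45.28 CPM. In KC-like cells the transcription-coupled genes summed to 62.1, 63.15 and 63.58 CPM and the incision genes to 58.75, 59.15 and 64.45 CPM. In each class the other roles were highest in CON. Resynthesis and ligation summed to 163.9, 107.5 and 95.04 CPM in FB-like and 395.3, 343.1 and 262.8 CPM in KC-like cells. Of 8 classes compared by the mean of their 3 libraries, KC-like cells had the highest level for 22 of the 43 genes and lymphocyte (LYM)-like cells for 12, against 21.8% and 16.8% of the 19529 genes with at least 50 UMIs in these classes. Myeloid (MYE)-like cells had the lowest level for 23, against 25.1% of all genes.

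Some genes stood out in lymphocytes. Ddb2, the damage-binding partner of Ddb1, was at 30.2, 25.9 and 24.6 CPM in the LYM-like cells of CON, UV and Rux, against at most 15.8 CPM in any library of MYE-like cells, the class next in order. Neil1, a glycosylase for oxidised bases, was at 20.8, 12.3 and 13.6 CPM in LYM-like cells and at 1.52 to 2.36 CPM in FB-like cells. In Schwann cell (SCH)-like cells, the class next in order, Neil1 was at 0, 1.71 and 7.86 CPM. Its CON and UV values rest together on 52 UMIs in LYM-like and 1 in SCH-like cells. Xrcc5, which encodes the Ku80 end-binding protein, was at 24.7 to 42.8 CPM in SCH-like cells and at 26.9 to 36.7 CPM in KC-like cells, ranges that overlap. In MYE-like cells Xrcc5 was at 0.981 to 1.72 CPM, on 5 UMIs in CON and UV together. Polb, the gap-filling polymerase of base excision repair, was at 87.5 to 104 CPM in KC-like cells and at 72.6 to 81.3 CPM in MYE-like cells, with no overlap between the libraries of these neighbours in the order.

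**Figure D1:**
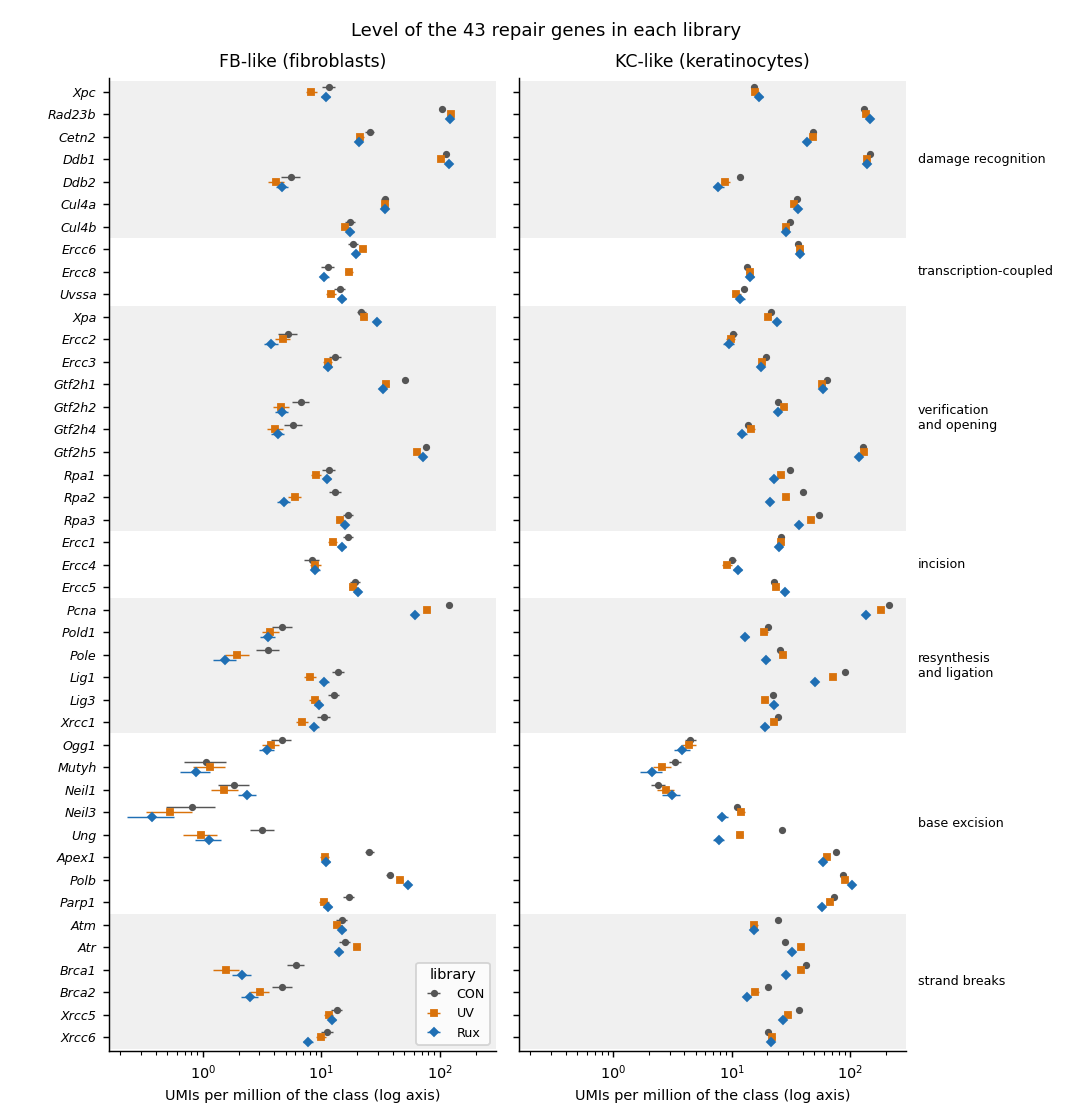
CPM of each of the 43 genes (log axis) in FB-like cells (left) and KC-like cells (right); points are the CON, UV and Rux libraries, bars are exact Poisson 95% intervals for counting error, and the bands group genes by role. Most points lie further right in KC-like cells, for example Apex1 at 59.6 to 76.4 CPM against 10.7 to 25.4 CPM in FB-like cells.

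The difference between keratinocytes and fibroblasts could be tested, because each of the 3 libraries holds both classes. In an edgeR quasi-likelihood test on summed UMIs with library as a block, 32 of the 43 genes were higher in KC-like cells at an adjusted p under 0.05 and 2 were lower. Among all genes tested, 34.0% were higher and 34.1% were lower. The median log2 fold change was 0.81 over the 43 genes and 0.01 over all genes. The fold changes of the tests follow TMM scaling of the sums, which the CPM values do not have, so they differ from ratios of the CPM. Each SE of a log2 fold change is its absolute value divided by the square root of the F statistic of the test. It is not a standard error given by the fit. Since the libraries are also the conditions, the spread in this test includes any difference between conditions, and whether a library holds 1 mouse or several is not known.

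The genes with the lowest adjusted p were enzymes of base excision, replication and strand-break repair. Neil3, a glycosylase, stood at 0.812, 0.532 and 0.373 CPM in FB-like cells in the order CON, UV, Rux and at 11.1, 12.0 and 8.33 CPM in KC-like cells, a log2 fold change of 3.995 ± 0.22 (SE, n = 3 libraries, edgeR adjusted p = 7.02e-05). Its FB-like values rest on 19 to 21 UMIs per library. Parp1, the sensor of single-strand breaks, was at 16.96, 10.5 and 11.3 CPM in FB-like and 73.4, 67.2 and 57.4 CPM in KC-like cells, a log2 fold change of 2.12 ± 0.13 (SE, edgeR adjusted p = 9.10e-05). Pole, the catalytic subunit of a replicative polymerase, was at 3.55, 1.95 and 1.53 CPM in FB-like and 25.4, 27.4 and 19.7 CPM in KC-like cells, a log2 fold change of 3.19 ± 0.21 (SE, edgeR adjusted p = 0.000131).

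The genes given here were picked by adjusted p over the same libraries, so a lack of overlap between the classes adds no support. The share of all genes without overlap was not counted. For each of these 3 genes the lowest KC-like library lay above the highest FB-like library. The same was true of Brca2, a mediator of homologous recombination, at 4.66, 3.04 and 2.49 CPM in FB-like and 20.3, 15.9 and 13.5 CPM in KC-like cells, with a log2 fold change of 2.06 ± 0.14 (SE, edgeR adjusted p = 0.000135). Ung, the uracil glycosylase, was at 3.16, 0.963 and 1.12 CPM in FB-like and 26.7, 11.7 and 7.78 CPM in KC-like cells, and its log2 fold change was 2.89 ± 0.20 (SE, edgeR adjusted p = 0.000155). Brca1, which acts with Brca2 in recombination, differed by 3.44 ± 0.34 on the log2 scale.

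By role, all 6 resynthesis and ligation genes were called higher in KC-like cells, with log2 fold changes from 0.82 for Lig3 and Pcna to 3.19 for Pole. Lig1, the replicative DNA ligase, differed by 2.46, the polymerase subunit gene Pold1 by 1.86 and the scaffold gene Xrcc1 by 1.11. Of the 8 base excision genes 6 were called higher, among them Apex1, the AP endonuclease, at 1.95, the adenine glycosylase gene Mutyh at 1.10 and Polb at 0.79. Neil1 at 0.29 and the oxoguanine glycosylase gene Ogg1 at -0.14 did not pass the test. Of the 6 strand-break genes 5 were called higher, including Xrcc5 at 1.06, Xrcc6, which encodes Ku70, at 0.90 and the checkpoint kinase gene Atr at 0.75, while Atm, the other checkpoint kinase gene, was at 0.07 and did not pass.

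The verification and opening genes were also mostly higher in KC-like cells, with 9 of 10 called. The TFIIH genes differed by 2.05 for Gtf2h2, 1.28 for Gtf2h4, 0.87 for the helicase gene Ercc2, 0.59 for Gtf2h5, 0.38 for the helicase gene Ercc3 and 0.37 for Gtf2h1 on the log2 scale. The genes of RPA, which coats single-stranded DNA, differed by 1.75 for Rpa2, 1.29 for Rpa3 and 1.07 for Rpa1. The damage recognition genes differed less: Cetn2 at 0.81, Ddb2 at 0.72, Cul4b, a scaffold of the ubiquitin ligase that carries Ddb2, at 0.55 and Xpc at 0.43 were called. Ddb1 at 0.08, Rad23b, the partner of Xpc, at -0.01 and Cul4a at -0.22 were not. Without TMM scaling Ddb1 was at 147, 140 and 138 CPM in KC-like and 113, 103 and 120 CPM in FB-like cells (CON, UV, Rux).

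Xpc, the sensor that starts genome-wide excision repair, was at 11.5, 8.24 and 10.9 CPM in FB-like cells in the order CON, UV, Rux and at 15.6, 15.9 and 17.1 CPM in KC-like cells, with a log2 fold change of 0.43 ± 0.14 (SE, edgeR adjusted p = 0.0364). Among the incision genes, Ercc1 was called higher in KC-like cells at 0.56, whereas its partner nuclease gene Ercc4 at -0.03 and the nuclease gene Ercc5 at 0.10 did not pass. Of the transcription-coupled genes, Ercc6, which encodes CSB, was called higher at 0.63 and Ercc8, which encodes CSA, was at -0.12 and did not pass.

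The 2 genes called lower in KC-like cells were Uvssa, which stabilises CSB at the stalled polymerase, and Xpa, the verification protein gene. Uvssa was at 14.3, 12.1 and 15.0 CPM in FB-like and 12.7, 10.9 and 11.8 CPM in KC-like cells, with a log2 fold change of -0.48 ± 0.13 (SE, edgeR adjusted p = 0.0201). Xpa was at 21.7, 22.7 and 29.6 CPM in FB-like and 21.4, 20.4 and 24.2 CPM in KC-like cells, with a log2 fold change of -0.41 ± 0.13 (SE, edgeR adjusted p = 0.0312). In either gene the library ranges of the classes overlap, and the calls were lost when the cycle-gene-positive cells defined next were left out. Either fold change lies further below 0 than the CPM of any library give, because the test adds TMM scaling. Cul4a, Ogg1 and Ercc8 had negative values that did not pass, with adjusted p of 0.106, 0.465 and 0.577 by edgeR.

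The calls changed when cycle-gene-positive cells were left out, and what these cells add to the class difference was not tested. With cycle-gene-positive cells left out of both classes, 21 genes were called higher, 20 of them among the 32, and 0 lower. Pcna, the sliding clamp of replication, turned to -0.32 and Mutyh to -0.34. The share of all genes called in this setting was not counted.

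To compare keratinocytes with more and with less cycle gene RNA, KC-like cells were split by 20 cell cycle genes, none of them among the 43: a cell was cycle-gene-positive when at least 4 were detected. This class is a range of a count and not a cell type. It held 2096 of 3662 KC-like cells in CON (57.2%), 1159 of 1929 in UV (60.1%) and 716 of 1621 in Rux (44.2%). Positive cells were deeper, with a median of 25261 to 30189 UMIs against 11400 to 15376 in the others. When the cycle genes were counted after thinning each cell to 5000 UMIs, leaving out 226, 109 and 112 shallower cells of CON, UV and Rux, the positive shares were 44.0%, 48.0% and 32.9%. That split, chosen after seeing the data, still had deeper positive cells, at a median of 27268 to 31531 against 14385 to 18791 UMIs, and how far depth itself moves the genes was not tested. In FB-like cells 66, 28 and 43 cells of CON, UV and Rux were positive.

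With library as a block, edgeR called 24 of the 43 genes higher in cycle-gene-positive than in other KC-like cells, and 2 lower. Among all genes 14.7% were called higher and 14.4% lower, and the median log2 fold change was 0.49 over the 43 genes and 0.00 over all genes. Of the 32 genes called higher in KC-like than FB-like cells, 23 (71.9%) were also called here, and they make up 95.8% of the 24. Ercc8 was called in this test alone. The thinned split also called 24 higher and 2 lower, and it no longer called Ercc1 and Ung.

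Brca1 was at 3.30, 3.85 and 2.80 CPM in the other KC-like cells of CON, UV and Rux and at 54.9, 48.4 and 44.5 CPM in positive cells, a log2 fold change of 3.87 ± 0.13 (SE, n = 3 libraries, edgeR adjusted p = 0.000193). Lig1 was at 17.7, 13.6 and 10.3 CPM against 114, 89.1 and 74.5 CPM, a log2 fold change of 2.71 ± 0.10 (SE, edgeR adjusted p = 0.000212). Neil3 was at 14.5, 15.4 and 13.2 CPM in positive cells, while the others held 6, 2 and 2 UMIs of it in all, and its fitted log2 fold change of 6.06 ± 0.28 (SE, edgeR adjusted p = 0.000307) rests on those few counts.

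The libraries of the positive and other cells did not overlap for any of these 3 genes, and the same held for the next ones in order. As these genes were picked by adjusted p over the same libraries, this adds no support, and the share of all genes without overlap was not counted. Pcna was at 85.7, 77.2 and 62.7 CPM against 252, 213 and 182 CPM, a log2 fold change of 1.48 ± 0.08 (SE, edgeR adjusted p = 0.000431). Pold1 was at 5.26, 4.72 and 4.45 CPM against 25.2, 23.0 and 18.0 CPM, a log2 fold change of 2.15 ± 0.14 (SE, edgeR adjusted p = 0.000766). The remaining calls above 1 on the log2 scale were Pole, Rpa2, Mutyh, Ung, Brca2, Rpa3 and Rpa1, from 2.58 down to 1.08.

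Several excision genes were not called higher in cycle-gene-positive cells, and 2 were called lower. Uvssa was at 18.5, 15.0 and 16.3 CPM in other and 10.8, 9.76 and 9.16 CPM in positive cells, a log2 fold change of -0.78 ± 0.13 (SE, edgeR adjusted p = 0.0124). Xpc was at 19.1, 19.8 and 19.6 CPM in other and 14.4, 14.8 and 15.6 CPM in positive cells, a log2 fold change of -0.42 ± 0.11 (SE, edgeR adjusted p = 0.0443). Every library had less Uvssa and less Xpc in its positive cells, but neither call was made without the UV or without the Rux library, and the call on Xpc was lost with DESeq2 and at a clustering resolution of 0.8. Ercc5, Polb and Ercc4 had values of -0.40, -0.22 and -0.37 that did not pass, with adjusted p of 0.0845, 0.144 and 0.153 by edgeR. Rad23b at -0.04, Ddb2 at -0.09, Ercc3 at 0.02 and Ercc6 at -0.09 did not pass either. When KB-like clusters alone took the place of the KC-like class, 6 genes were called higher and 0 lower, and without the UV library 10 were called higher. The share of all genes called in these settings was not counted, so a general loss of calls cannot be told apart.

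**Figure D2:**
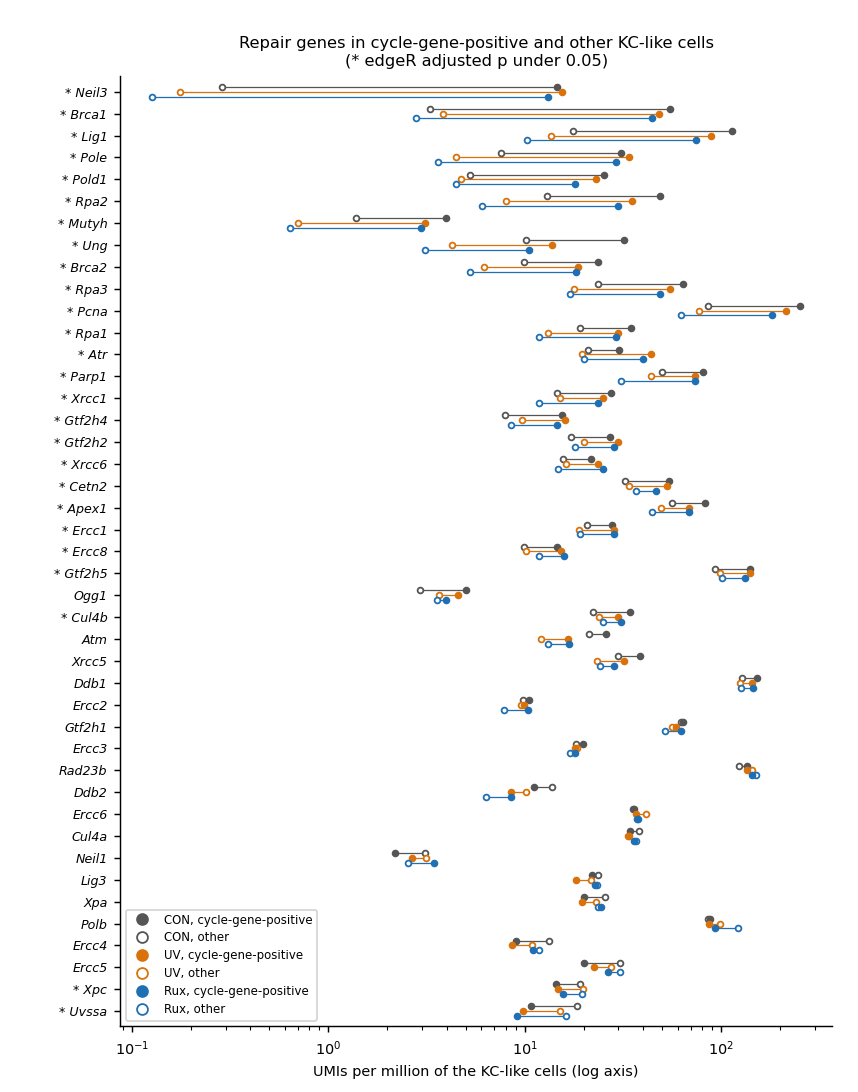
CPM (log axis) of the 43 genes in cycle-gene-positive (filled) and other (open) KC-like cells of each library, ordered by log2 fold change; stars mark edgeR adjusted p under 0.05. Neil3, Brca1 and Lig1 span the longest lines to the right, and Uvssa and Xpc at the bottom run to the left.

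Promoters of genes called higher in cycle-gene-positive cells are shown because E2F factors, which drive replication genes, are known to bind TTT followed by a CG-rich stretch. RefSeq promoters on GRCm38.p6, from 250 bases before to 50 after a start site, were matched by symbol for 38 of the 43 genes, all but Ddb2, Ercc3, Polb, Pole and Xpc. They were searched on both strands for TTTCGCGC, TTTGGCGC, TTTCCCGC and TTTGCCGC, which cannot overlap on 1 strand. A match was found for 4 of the 38 genes (10.5%), against 2.60% of all 27025 genes with a promoter and 2.26% of all 32851 promoters. The 4 were Lig1, Brca2, Pold1 and Xrcc6, and each was among the 24 genes called higher in cycle-gene-positive cells, of which 23 have a promoter in the set. The share with a match among all genes called higher in cycle-gene-positive cells was not counted. A match is a description of these letters, no binding was measured, and an action of E2F on these genes was not tested.

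The promoters of the 3 replication and recombination genes follow, 5' to 3' on the gene's strand, with the match in capitals, which in each reads as the reverse complement of the motif. The Lig1 match to TTTCGCGC begins at base 27 after the start (chr7:13278576-13278875, plus strand), the Brca2 match to TTTCCCGC begins 168 bases before the start (chr5:150522371-150522670, plus strand), and the Pold1 match to TTTCCCGC begins at base 40 after the start (chr7:44548766-44549065, minus strand).
Lig1: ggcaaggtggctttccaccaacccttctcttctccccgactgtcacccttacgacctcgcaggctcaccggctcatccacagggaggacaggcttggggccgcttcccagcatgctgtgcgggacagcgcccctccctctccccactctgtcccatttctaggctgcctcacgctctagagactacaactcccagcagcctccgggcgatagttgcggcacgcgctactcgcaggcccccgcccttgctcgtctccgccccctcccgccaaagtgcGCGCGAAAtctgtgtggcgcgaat
Brca2: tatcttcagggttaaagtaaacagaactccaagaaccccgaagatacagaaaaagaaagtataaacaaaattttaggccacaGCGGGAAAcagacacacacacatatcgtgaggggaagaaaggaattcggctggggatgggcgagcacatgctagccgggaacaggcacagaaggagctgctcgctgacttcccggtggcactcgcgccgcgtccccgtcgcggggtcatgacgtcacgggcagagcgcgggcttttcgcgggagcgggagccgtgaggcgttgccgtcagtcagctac
Pold1: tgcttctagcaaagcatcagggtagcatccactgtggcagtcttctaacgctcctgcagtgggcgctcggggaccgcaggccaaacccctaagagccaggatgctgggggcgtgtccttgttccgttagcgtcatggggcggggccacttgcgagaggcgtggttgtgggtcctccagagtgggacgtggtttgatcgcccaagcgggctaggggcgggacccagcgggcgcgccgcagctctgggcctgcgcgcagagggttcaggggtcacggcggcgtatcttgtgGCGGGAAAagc

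The UV and CON libraries compare chronically irradiated with unexposed skin. In FB-like cells 42 of the 43 genes had at least 50 UMIs in CON and UV together, and Neil3 did not. A gene was past the fold when its CPM differed by at least 1.5-fold. By this rule 10 genes were lower in UV and 1 was higher, against 14.7% and 10.9% of all 14595 genes with as many UMIs. The log2 ratio was below 0 for 33 of the 42 and for 62.1% of all genes, and the median was -0.27 over the 42 and -0.12 over all genes. With the clusters weighted alike in both libraries the median over the members was -0.12, and with median-of-ratios scaling it was -0.15. The median over all genes was not counted in these 2 settings. For 24 genes the 95% interval, which covers counting error only, lay below 0, and for 5 it lay above, against 41.6% and 23.4% of all genes.

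The lowest ratios belonged to a recombination gene, base excision genes and an RPA gene. Brca1 was at 6.11 CPM in CON, 1.57 in UV and 2.13 in Rux, a UV over CON log2 ratio of -1.95 (95% interval -2.41 to -1.52). Ung was at 3.16, 0.963 and 1.12 CPM, a log2 ratio of -1.71 (-2.32 to -1.13). Apex1 was at 25.4, 10.7 and 11.0 CPM, a log2 ratio of -1.25 (-1.44 to -1.07). In these genes the UV and Rux libraries lay close together and CON lay apart, and Apex1 rests on 421 to 620 UMIs per library against 38 to 74 for Ung and 62 to 143 for Brca1. Rpa2 was at 13.1, 5.96 and 4.82 CPM, a log2 ratio of -1.13 (-1.39 to -0.88).

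The other genes lower past the fold were Pole at -0.86, Lig1 at -0.78, Parp1 at -0.69, Brca2 at -0.61, Xrcc1 at -0.61 and Pcna at -0.60. All 6 resynthesis and ligation genes were lower in UV, 4 of them past the fold, with Lig3 at -0.53 and Pold1 at -0.33 short of it. Of the 10 verification and opening genes 9 were lower and 1 was past the fold, with Gtf2h2 at -0.56, Gtf2h4 and Gtf2h1 at -0.51, Rpa1 at -0.36, Gtf2h5 at -0.26, Rpa3 at -0.23, Ercc3 at -0.21 and Ercc2 at -0.14. Of 32 members with at least 20 UMIs in each of the 7 FB-like clusters that held 100 cells in both libraries, 5 were lower in all 7, namely Gtf2h1, Pcna, Xrcc1, Apex1 and Parp1, against 10.7% of all genes. Apex1 differed there by -1.42 to -0.24 and Parp1 by -0.96 to -0.42.

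Some genes were higher in UV. Ercc8 was at 11.4 CPM in CON, 17.1 in UV and 10.6 in Rux, a log2 ratio of 0.59 (0.38 to 0.80). Atr was at 15.7, 19.8 and 14.1 CPM, a log2 ratio of 0.34 (0.16 to 0.52). Polb was at 37.6, 46.3 and 53.6 CPM, a log2 ratio of 0.30 (0.18 to 0.42). Ercc8 and Atr were highest in the UV library, whereas Polb was highest in Rux. Ercc6 was at 18.5, 22.4 and 19.6 CPM, a log2 ratio of 0.28 (0.11 to 0.45), while Uvssa, the other transcription-coupled gene, was at -0.24. With the clusters weighted alike in both libraries, Ercc8 was at 0.18, Atr at 0.19, Polb at -0.00 and Ercc6 at -0.04.

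No damage recognition gene was past the fold in UV over CON, apart from Xpc in the FB-like cells without KB marker UMIs described next. Xpc had a log2 ratio of -0.48 (-0.72 to -0.24), and -0.83 in those cells, Ddb2 of -0.42, Cetn2 of -0.27, Cul4b of -0.15, Ddb1 of -0.13, Cul4a of 0.02 and Rad23b of 0.24. Among the remaining genes, Ercc1 was at -0.43, Ercc4 at 0.11, Ercc5 at -0.06, Xpa at 0.07, Ogg1 at -0.30, Neil1 at -0.28, Mutyh at 0.08, Atm at -0.13, Xrcc5 at -0.23 and Xrcc6 at -0.17.

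The sums of cycle genes and of KB markers in FB-like cells also differed between the libraries, and their part in these differences was not tested. The 20 cycle genes summed to 221, 87.5 and 66.1 CPM in FB-like cells in the order CON, UV, Rux, and the 6 KB markers to 238, 107 and 106 CPM. With cycle-gene-positive cells left out, 6 genes were lower past the fold and 0 higher, and Pole turned to 0.07. Median-of-ratios scaling also gave 6 lower. With the clusters weighted alike in both libraries 7 were lower and 0 higher, and Brca2 turned to 0.04 and Ddb2 to 0.17. In the FB-like cells without a single KB marker UMI, which are 24.9% of those in CON, 48.4% in UV and 34.2% in Rux, 6 genes were lower past the fold, of which Apex1, Brca2, Parp1 and Rpa2 are among the 10 and Xpc and Gtf2h2 are not, and Lig1 was at -0.15. Brca1, Ung, Pole, Mutyh and Neil1 had too few UMIs there for a value. Over the main and the 8 other settings with a value for each gene, Apex1 was at -1.32 to -1.09, Rpa2 at -1.28 to -0.68 and Parp1 at -0.84 to -0.57, and over those other than the cells without KB marker UMIs, Ung was at -1.71 to -1.32 and Brca1 at -2.29 to -1.13. The share of all genes past the fold in these settings was not counted. The clusters also differed in weight: cluster 0 held 1431 FB-like cells of CON and 740 of UV, and cluster 5 held 128 and 1078. The member median lay above that of all genes in cluster 0 (0.05 against -0.02) and in cluster 5 (-0.07 against -0.11). In the other FB-like clusters compared, the member median minus that of all genes was -0.40 to -0.05.

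**Figure D3:**
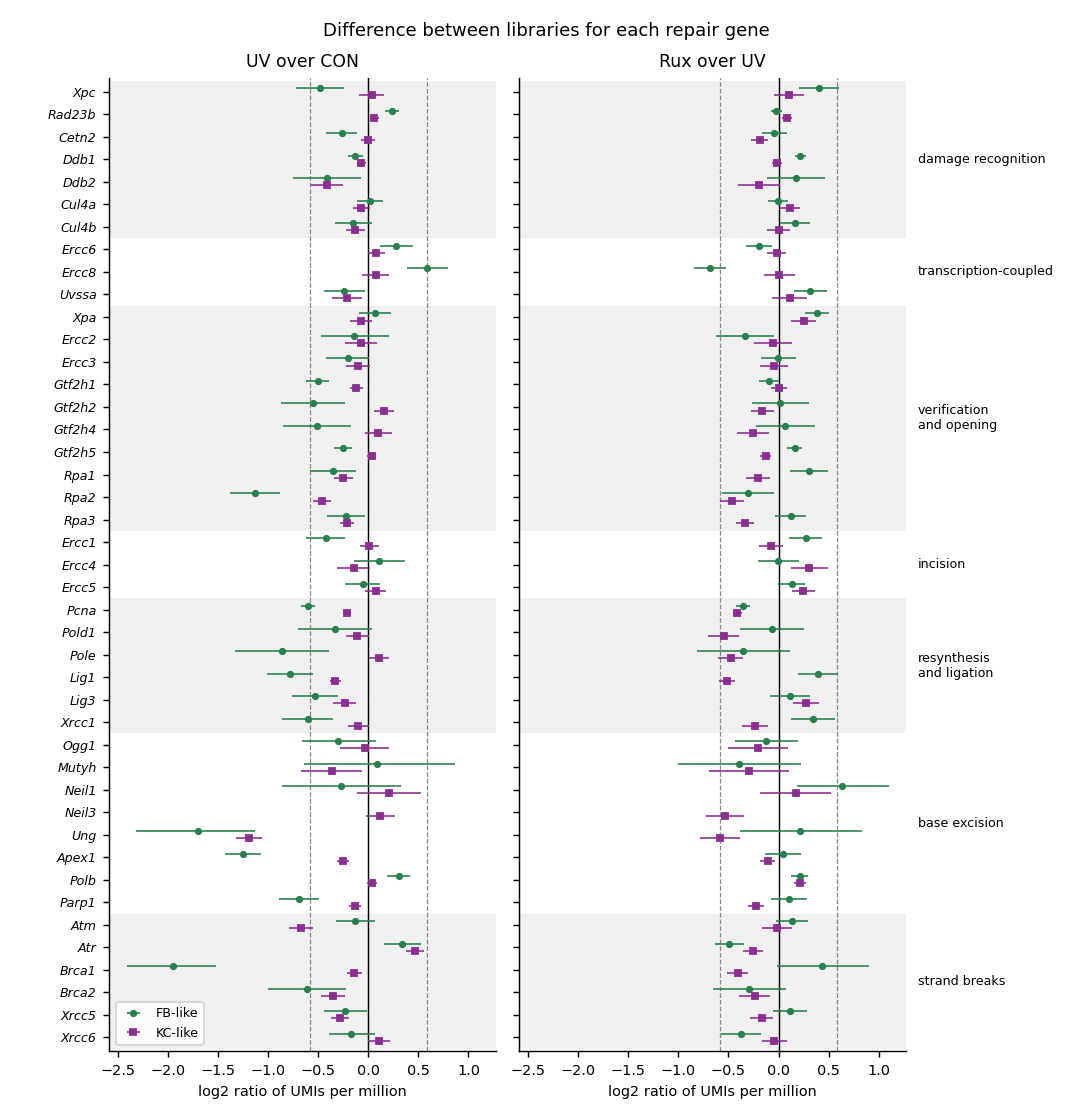
Log2 ratio of CPM for UV over CON (left) and Rux over UV (right) of each gene with at least 50 UMIs, in FB-like (circles) and KC-like (squares) cells; bars are exact 95% counting intervals and dashed lines mark a 1.5-fold difference. In UV over CON the FB-like points of Brca1, Ung, Apex1 and Rpa2 lie below -1, and in Rux over UV most points lie inside the dashed lines.

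In KC-like cells all 43 genes had at least 50 UMIs, 2 were lower in UV past the fold and 0 were higher, against 7.37% and 13.4% of all genes. The median log2 ratio was -0.10 over the 43 and -0.01 over all genes. In KB-like clusters alone, with 566 cells in CON and 144 in UV, 7 members were higher past the fold and 3 lower. The share of all genes past the fold was not counted there. The counting interval lay above 0 for 13 of 40 members and below for 5, against 32.6% and 17.5% of all genes. The median was 0.09 over the members and 0.10 over all genes. A dividing cluster gave 74 of these cells in CON and 75 in UV. In the whole KC-like class Ung was at 26.7, 11.7 and 7.78 CPM in CON, UV and Rux, a UV over CON log2 ratio of -1.19 (-1.33 to -1.07). Atm was at 24.8, 15.6 and 15.4 CPM, a log2 ratio of -0.67 (-0.79 to -0.55). CON was the highest library for either gene, and they were among 9 of 41 members lower in UV in all 5 KC-like clusters with 100 cells in both libraries, against 13.4% of all genes. Those 5 leave out a basal cluster (cluster 17) with 484 cells in CON and 23 in UV. They also leave out the suprabasal cluster led by Krt77 and Krt10 (cluster 33), with 240 and 4 cells. The KC-like class of UV thus held few cells of either, and the part of this in the ratios was not tested.

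Rpa2 was at 40.0, 29.0 and 21.0 CPM, a log2 ratio of -0.46 (-0.55 to -0.37), and Ddb2 at 11.8, 8.87 and 7.74 CPM, a log2 ratio of -0.41 (-0.58 to -0.25). Neither reached the fold, and in both the libraries stood in the order CON, UV, Rux. With the clusters weighted alike in both libraries Rpa2 was at -0.56 and Ddb2 at -0.10. In KB-like clusters alone they were at 0.66 and -0.30. Of 5 KC-like clusters, Rpa2 was lower in UV in 5 and Ddb2 in 3. The highest ratio belonged to Atr, at 28.0, 38.7 and 32.4 CPM, a log2 ratio of 0.46 (0.38 to 0.55). Neil1 was at 2.40, 2.78 and 3.12 CPM, a log2 ratio of 0.21 whose interval of -0.11 to 0.52 spans 0. Gtf2h2 was at 24.8, 27.7 and 24.7 CPM (0.16, 0.06 to 0.26), and Neil3 at 11.1, 12.0 and 8.33 CPM, with a log2 ratio of 0.12 and an interval of -0.03 to 0.27. Xpc was at 15.6, 15.9 and 17.1 CPM, with a log2 ratio of 0.04 and an interval of -0.09 to 0.16. Atr turned to -0.10 with cycle-gene-positive cells left out and to -0.11 in KB-like clusters alone.

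Apex1, Ung, Pcna and Parp1, picked after their values were seen, were followed through the other classes. Apex1 was lower in UV than in CON in 7 of 7 classes with 100 cells in both libraries and at least 50 UMIs of it, and in 5 the counting interval lay below 0. The smallest difference was in sebaceous gland (SG)-like cells, at -0.14 (-0.37 to 0.08). The SG-like class is mixed: cluster 42, with 63 cells in CON and 65 in UV, was led by fat cell genes such as Adipoq, Retn and Plin1. Cluster 44, with 52 and 37 cells, was led by Elovl3. In vascular endothelial (VEC)-like cells Apex1 was at 34.7, 14.1 and 13.7 CPM in CON, UV and Rux, in lymphatic endothelial (LEC)-like cells at 27.2, 12.7 and 7.20 CPM, and in pericyte (PCY)-like cells at 45.8, 19.98 and 10.5 CPM. In each of these the UV and Rux libraries lay below CON, and the UV over CON log2 ratios of -1.29, -1.09 and -1.19 were near the -1.25 of FB-like cells, while KC-like cells had -0.25.

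Ung was lower in UV in 4 of 4 classes, at 12.1, 6.25 and 3.39 CPM in LEC-like cells. Pcna was lower in 8 of 9 classes, with the interval below 0 in 6, and in LYM-like cells stood at 267, 144 and 129 CPM. Parp1 was lower in 6 of 8 classes, with the interval below 0 in FB-like, KC-like and VEC-like cells, and was at 0.30 in SG-like and 0.13 in LEC-like cells with intervals that span 0. In the single classes, 45.8% (PCY-like) to 62.6% (MYE-like) of all genes were lower in UV. How many of all genes were lower in as many classes as these 4 was not counted. All classes come from the same 3 libraries, so these are not separate replicates of the comparison, and they can share free RNA within a library.

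**Figure D4:**
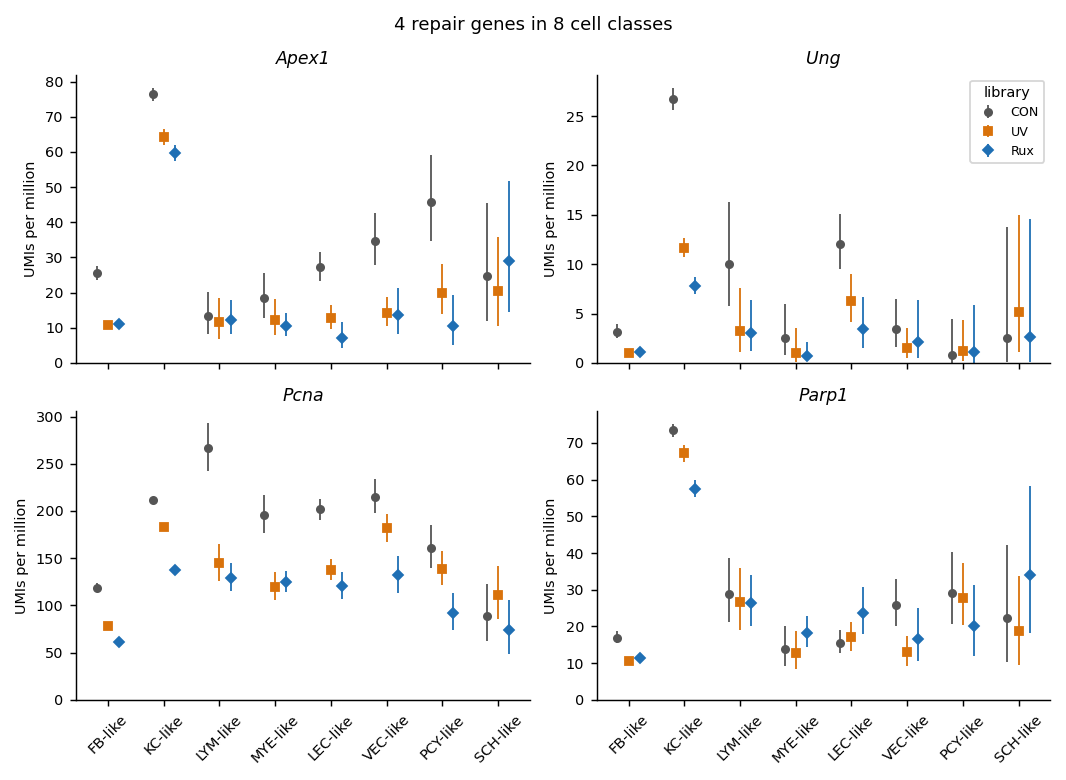
CPM of Apex1, Ung, Pcna and Parp1 in the 8 cell classes with 100 cells in every library; points are the CON, UV and Rux libraries and bars are exact Poisson 95% intervals. Apex1 is highest in CON in every class drawn except SCH-like cells, where Rux is highest on 10 to 12 UMIs per library; in VEC-like cells it is at 34.7 CPM against 14.1 and 13.7.

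The comparison of Rux with UV shares the UV library with UV over CON. In FB-like cells 1 gene was higher in Rux past the fold and 1 was lower, against 5.2% and 12.4% of all genes, and the median log2 ratio was 0.09 over 42 genes and -0.01 over all genes. Neil1 was at 1.84, 1.52 and 2.36 CPM in CON, UV and Rux, a Rux over UV log2 ratio of 0.63 (0.19 to 1.10) that rests on 60 and 133 UMIs. Ercc8 was at 11.4, 17.1 and 10.6 CPM, a log2 ratio of -0.69 (-0.85 to -0.53). Ercc8 in UV thus lay above both other libraries.

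Brca1 was at 6.11, 1.57 and 2.13 CPM, a log2 ratio of 0.43 whose interval of -0.01 to 0.91 spans 0. Xpc was at 11.5, 8.24 and 10.9 CPM, a log2 ratio of 0.40 (0.20 to 0.60), and Lig1 at 13.8, 8.04 and 10.6 CPM, also at 0.40 (0.20 to 0.60). Atr was at 15.7, 19.8 and 14.1 CPM, a log2 ratio of -0.49 (-0.64 to -0.35), and Xrcc6 at 11.2, 9.96 and 7.66 CPM, a log2 ratio of -0.38 (-0.58 to -0.18). Mutyh, at 1.07, 1.14 and 0.871 CPM, had a log2 ratio of -0.39 with an interval of -1.003 to 0.23. Apex1 was at 0.05 (-0.13 to 0.23) and Ung at 0.21 with an interval of -0.39 to 0.84.

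In KC-like cells 0 of the 43 genes were past the fold in either direction, against 5.63% higher and 8.51% lower among all genes. The median log2 ratio was -0.13 over the 43 and -0.03 over all genes. In Rux 31 of the 43 genes were lower, among them 5 of the 6 resynthesis and ligation genes, against 56.05% of all genes. Ung was at 26.7, 11.7 and 7.78 CPM (-0.58, -0.78 to -0.39), Pold1 at 20.4, 18.9 and 12.9 CPM (-0.55, -0.70 to -0.39), Neil3 at 11.1, 12.0 and 8.33 CPM (-0.53, -0.72 to -0.34) and Lig1 at 90.9, 72.4 and 50.6 CPM (-0.52, -0.59 to -0.44). Rux was the lowest library for all 4, and its share of cycle-gene-positive KC-like cells was 44.2% against 60.1% in UV. With those cells left out Pold1 was at -0.09, Lig1 at -0.41 and Ung at -0.46, and Neil3 had no value. With the clusters weighted alike in both libraries, Ung was at -0.45, Pold1 at -0.27, Neil3 at -0.11 and Lig1 at -0.23. The median over the members was then -0.06. In KB-like clusters alone Ung was at 0.42, Pold1 at -0.19, Neil3 at -1.68 and Lig1 at -0.46. What the share of cycle-gene-positive cells and the mix of clusters add to these ratios was not tested.

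The highest Rux over UV ratios in KC-like cells were those of Ercc4 at 10.1, 9.12 and 11.3 CPM (0.31, 0.12 to 0.49), Lig3 at 22.4, 19.0 and 23.0 CPM (0.27, 0.14 to 0.40), Xpa at 21.4, 20.4 and 24.2 CPM (0.25, 0.13 to 0.38) and Ercc5 at 22.6, 23.7 and 28.2 CPM (0.25, 0.13 to 0.36). Xpc was at 0.10 with an interval of -0.04 to 0.25. All of these stayed under the 1.5-fold line.

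A list of 70 further repair genes was taken through the same tests. In KC-like against FB-like cells 49 were called higher and 3 lower, against 34.0% and 34.1% of all genes, with a median log2 fold change of 1.02. In cycle-gene-positive cells 41 were called higher and 2 lower, against 14.7% and 14.4% of all genes, the median being 0.65. In FB-like cells 69 passed the minimum, 20 were lower in UV past the fold and 3 were higher, against 14.7% and 10.9% of all genes. Their median log2 ratio there was -0.40, against -0.12 over all genes. The lowest were Clspn, a mediator of the replication checkpoint, at -1.13, H2afx, the histone marked at strand breaks, at -1.12, and Fen1, the flap endonuclease, at -1.10. The highest were Fanci, a Fanconi anaemia gene, at 2.19 on 10 and 80 UMIs, the glycosylase gene Neil2 at 0.63 and the recombination gene Rad54l at 0.61, and the intervals of the latter pair span 0. KC-like cells had 1 of the 70 lower in UV past the fold and 0 higher, with a median of -0.04. KB-like clusters alone had 22 of 65 higher and 1 lower, with a median of 0.28 against 0.10 over all genes. The share of all genes past the fold in KB-like clusters was not counted.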

How the data were processed

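For each library the authors deposited raw UMI counts per gene and called cell (mm10), made with Cell Ranger, version 6.1.2 per the labels and 7.0.0 per the file headers; whether intronic reads were counted is not given in the sources used here. The deposited matrices held 11287 to 13170 cells and 131570327 to 165337289 UMIs.

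Cells were kept from 200 detected genes upward and up to 10% mitochondrial UMIs, and those with the highest Scrublet scores (scanpy 1.11.5) were removed at 0.8% per 1000 cells. Seurat 5.3.0 in R 4.3.3 clustered the 3 libraries together (LogNormalize, 2000 variable genes, 30 components, resolution 1.5). Marker genes named the clusters, with at least 3 markers each in at least 10% of cells.

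UMIs were summed per class and library. Class differences were tested with edgeR 4.0.16 (TMM, filterByExpr, quasi-likelihood, library as block, Benjamini-Hochberg over all genes, threshold 0.05). DESeq2 1.42.0 was an alternative. A check on simulated counts changed few genes, at a single dispersion and with no effect of library. Many genes differ between the classes in these data, so that check does not vouch for the test here. The replicate numbers pair no samples across conditions. The pairing in the class tests is that both sums come from 1 library. Conditions were compared by log2 ratios of CPM with 0.5 UMI added and exact conditional binomial 95% intervals, past the fold at 1.5-fold and 50 UMIs; CPM intervals are exact Poisson. Intervals cover counting error only. Sums used numpy 2.4.6, scipy 1.17.1 and pandas 2.3.3 in Python 3.11.15, and figures matplotlib 3.10.9. Gene positions came from GENCODE M21 and promoters from RefSeq (GRCm38.p6).

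All 43 genes are named. In each comparison of conditions the 4 highest and 4 lowest, in each class test the 5 with the lowest adjusted p in either direction, and Xpc throughout have values in all libraries. Of the 70 other repair genes the 3 highest and 3 lowest in FB-like cells are named. The 43 genes and all lists were chosen with earlier results of these data known. Alternatives were other filters, scalings, clusterings, tests and cell subsets, of which the split on thinned cells and the FB-like cells without KB marker UMIs were chosen after seeing the data; clusters without a name were left out.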

Additional observations from a re-analysis of the deposited data

Results flagged for a closer look

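For 7 genes FB-like and KC-like cells differed in opposite directions between the same libraries, with both counting intervals off 0. Of the 42 members with enough UMIs in both classes, 2 did so for UV over CON, 4 for Rux over UV and 1 for Rux over CON, against 12.4%, 10.2% and 13% of all genes. The members thus did so no more often than all genes in any comparison, and the values below are not particular to them. Each class is 1 sum per library, so the difference between the classes was not tested. For UV over CON, Gtf2h2 had a log2 ratio of -0.56 in FB-like and 0.16 in KC-like cells, and Pole had -0.86 and 0.11. Without cycle-gene-positive cells Pole turned in both classes, to 0.07 in FB-like and -0.76 in KC-like cells. For Rux over UV, Gtf2h5 had 0.16 in FB-like and -0.13 in KC-like cells, Rpa1 0.30 and -0.21, Lig1 0.40 and -0.52, and Xrcc1 0.34 and -0.23. For Rux over CON, Ddb1 had 0.09 in FB-like and -0.08 in KC-like cells. Gtf2h2 encodes a TFIIH subunit, Gtf2h5 another, Pole a replicative polymerase, Rpa1 a subunit of RPA, and Lig1 and Xrcc1 proteins of resynthesis and ligation.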

How the results depend on the processing

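With 1 library per condition no result on conditions has replicates, UMIs limit the low genes (Neil3, Mutyh, Neil1, Ung and Brca1 in FB-like cells), and the cause of the changes below was not tested. The counts below are of the members, and the share of all genes called or past the fold under the alternatives was not counted. In the class tests the numbers 1 in the labels pair no samples; the block is the library that holds both sums.

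In FB-like cells, genes higher in UV past the fold went from 1 to 0 at a clustering resolution of 0.8, without cycle-gene-positive cells, with equal weight per cell and with the same mix of clusters, and to 2 at a fold of 5/4. Those lower went from 10 to 6 without cycle-gene-positive cells, with median-of-ratios scaling and in cells with no KB marker UMI (added after seeing the data). They went to 7 with the same mix of clusters, to 5 with equal weight and to 19 at a fold of 5/4. In Rux over UV, those higher went from 1 to 2 in cells with no KB marker UMI and 6 at a fold of 5/4, and those lower from 1 to 0 with equal weight and 7 at a fold of 5/4. The gene itself changed in 2 settings. With a strict cell filter (500 genes, 5% mitochondrial UMIs) the gene higher was Brca1, and Neil1 was at 0.55. In cells with no KB marker UMI the gene lower was Atr, and Ercc8 was at -0.50.

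In KC-like cells, genes higher in UV went from 0 to 7 in KB-like clusters and 1 at a fold of 5/4, those lower from 2 to 5 without cycle-gene-positive cells and 7 at a fold of 5/4, and the median reversed from -0.10 to 0.09 in KB-like clusters (0.10 over all genes there), where 75 of 144 UV cells came from 1 dividing cluster against 74 of 566 in CON. In Rux over UV, those higher went from 0 to 1 in KB-like clusters, and those lower from 0 to 1 at resolution 0.8 and without cycle-gene-positive cells, to 2 with equal weight and in KB-like clusters, and to 9 at a fold of 5/4.

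In KC-like against FB-like cells, calls higher went from 32 to 21 and lower from 2 to 0 without cycle-gene-positive cells. With KB-like clusters calls higher were 22, 21 of them among the 32, and calls lower were 0. Calls lower were 1 with no filter on low counts and with no replicate block. Leaving out 1 library gave 26 to 31 higher and 0 to 2 lower, with 0 lower without UV or without Rux. In cycle-gene-positive against other cells, calls higher were 6 in KB-like clusters. Calls lower were 1 at resolution 0.8, with no filter, with no replicate block and with DESeq2, and 0 in KB-like clusters. Leaving out 1 library gave 10 to 27 higher (10 without UV, 15 without Rux) and 0 to 3 lower (0 without UV or Rux).

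Single genes called or past the fold in the main setting reversed as follows. Without cycle-gene-positive cells Pole was at 0.07 (UV over CON, FB-like), and Uvssa at 0.05, Pcna at -0.32 and Mutyh at -0.34 (KC-like over FB-like). With the same mix of clusters Brca2 was at 0.04 (UV over CON, FB-like). With KB-like clusters Uvssa was at 0.17 and Ercc1 at -0.08 (KB-like over FB-like), and Cetn2 at -0.18, Cul4b at -0.14, Ercc1 at -0.07 and Parp1 at -0.00 (cycle-gene-positive over other). Counting also genes that were not called, the sign changed under at least 1 setting (values that round to 0 not counted) for 8 of 43 genes in KC-like over FB-like, 12 of 43 in cycle-gene-positive over other cells, 12 of 42 (FB-like) and 26 of 43 (KC-like) in UV over CON, and 8 of 42 and 22 of 43 in Rux over UV. Over the counts and medians under all alternatives, 122 values kept direction and size, 41 moved and 1 reversed.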
